A study of Mus musculus with 10 samples.

Results

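The 10 genes of double-strand break signalling described here are the kinase genes Atm and Chek2, the break sensor genes Mre11a, Rad50 and Nbn, the chromatin gene H2afx, and the mediator and ubiquitin ligase genes Mdc1, Rnf8, Rnf168 and Trp53bp1. They were taken by symbol from the 54446 gene rows of each library, and all 10 had a row. The libraries were made from polyadenylated RNA of tumours of TH-MYCN mice, a neuroblastoma model in which a tyrosine hydroxylase promoter drives a human MYCN transgene, so that every group, untreated included, carries the transgene. The groups compared were untreated tumours (libraries 1, 2 and 3), tumours after 24 h of the combination (libraries 2, 3 and 4) and tumours after 5 days of it (libraries 1 to 4). The treatment combined MLN8237 (alisertib), which blocks the mitotic kinase Aurora-A, with AZD6738 (ceralasertib), which blocks ATR, the kinase of the replication stress checkpoint. Titles of the samples call it a combination, whereas the design text puts "or" between both names. The labels give no dose, no age and no pooling of animals, and do not say that each library is another mouse. The p-values therefore measure the spread between these libraries, which may in part be technical.

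In this pathway the MRE11-RAD50-NBS1 complex binds broken DNA ends and activates the kinase ATM. ATM phosphorylates the histone variant H2AX beside the break, MDC1 binds the mark, and the ubiquitin ligases RNF8 and RNF168 modify the surrounding chromatin so that 53BP1 can gather there. ATM also phosphorylates CHK2, a kinase that carries the signal to CDC25 phosphatases and p53. The pathway runs beside the ATR-CHK1 branch, of which AZD6738 inhibits the upper kinase. These steps act on proteins, by phosphorylation and ubiquitination, which RNA libraries do not measure.

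Chek2 transcripts were about 1.8-fold higher after 24 h of the combination than in untreated tumours, and no other gene of the set differed by as much. Chek2 lay higher in all 3 libraries of the 24 h group than in any untreated library, and the difference was smaller after 5 days. Of the other 8 genes with counts, 7 had a fitted difference below 0 at 24 h, among them Atm at -0.46 and Nbn at -0.34 on the log2 scale. No gene of the set passed the threshold of an adjusted p of 0.05 in the fit of all 10 libraries. Rnf8 had 0 counts in all 10 libraries.

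Libraries held 5576926 to 5696436 counts, and normalised read counts (CPM) use these totals scaled by TMM factors. Library 1 of the 5-day group stands apart. Its counts differed from those of the other 5-day libraries by a chi-square of 123 to 174 per gene, against 6.48 to 16.3 for every other pair within a group. Summed over 14 adrenergic tumour cell markers it held 678 CPM, against 1980 to 3050 CPM in the other 9 libraries. Its 15 macrophage markers summed to 15200 CPM, its 10 fibroblast markers to 18100 CPM and its 8 adipocyte markers to 11900 CPM, where the other libraries held at most 1790, 2770 and 1500 CPM. Library 2 of the 5-day group held 1620 CPM of 8 adrenal cortex markers, against 10.6 to 98.8 CPM elsewhere. It also held 313 CPM of 6 hepatocyte markers, against at most 8.07 CPM elsewhere. Markers of skeletal muscle, 6 genes, summed to 424 CPM in that library, to 154 CPM in 5-day library 4 and to at most 7.23 CPM in the rest. Untreated library 3 held 116 CPM of 6 kidney tubule markers. In bulk tumour RNA, fewer cells of a type and less RNA per cell cannot be told apart. The 10 genes of the set summed to 472 CPM in 5-day library 1 and to 774 to 959 CPM in the other 9 libraries. The main results are therefore given both with all 10 libraries and with the 9 that remain without it. Fold changes given without mention of a fit are from all 10 libraries.

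The stretches upstream of Chek2 and of Atm are shown because both genes share them with a neighbour on the opposite strand, and those of Rnf169 and Rnf168 because these related ligase genes differed in opposite directions. Sequences are from RefSeq (mouse build GRCm38.p6), end at the base before the start of the gene in the annotation, run 5′ to 3′ on the gene's strand, and have motif matches in capitals. The RefSeq promoter table held no entry for Nbn, Rad50 and H2afx.
Chek2, chr5:110839778-110839978, plus strand: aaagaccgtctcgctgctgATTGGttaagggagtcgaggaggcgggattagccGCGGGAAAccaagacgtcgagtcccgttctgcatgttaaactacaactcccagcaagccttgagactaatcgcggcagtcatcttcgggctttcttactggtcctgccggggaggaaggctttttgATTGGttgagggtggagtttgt
Atm, chr9:53536741-53536921, minus strand: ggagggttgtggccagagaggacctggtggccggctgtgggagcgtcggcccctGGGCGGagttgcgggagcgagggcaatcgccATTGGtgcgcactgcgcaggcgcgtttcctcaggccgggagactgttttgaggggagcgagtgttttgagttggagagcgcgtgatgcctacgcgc
Rnf169, chr7:99980459-99980708, minus strand: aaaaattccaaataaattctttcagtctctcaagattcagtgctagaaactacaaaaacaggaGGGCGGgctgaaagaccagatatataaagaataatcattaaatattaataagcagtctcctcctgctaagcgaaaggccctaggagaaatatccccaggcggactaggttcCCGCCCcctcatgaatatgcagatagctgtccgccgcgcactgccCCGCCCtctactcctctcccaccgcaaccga
Rnf168, chr16:32277211-32277458, plus strand: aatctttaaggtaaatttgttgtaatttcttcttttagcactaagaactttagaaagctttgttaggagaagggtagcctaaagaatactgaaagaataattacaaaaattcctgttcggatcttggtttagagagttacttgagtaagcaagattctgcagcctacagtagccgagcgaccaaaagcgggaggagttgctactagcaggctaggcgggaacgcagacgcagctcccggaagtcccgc
The motifs searched on both strands were an E2F site (TTTCCCGC or TTTGGCGC), the CHR element (TTTGAA), the CCAAT box (CCAAT), the GC box (GGGCGG) and a paired p53 core (CATG, any 6 bases, CATG). The 201 bases between the starts of Hscb and Chek2 hold 1 E2F site, read as GCGGGAAA on this strand, and 2 CCAAT boxes, read as ATTGG. Among the windows of the same length of 32851 promoters, 1.12% hold at least 1 such E2F site and 29.5% at least 1 CCAAT box. All shares given here count promoters with 1 match or more. The 181 bases before Atm hold 1 CCAAT box (27.6% of promoters) and 1 GC box (30.3%). The 250 bases before Rnf169 hold 3 GC boxes (32.7% of promoters hold at least 1), and the 248 bases before Rnf168 hold none of these motifs. A match describes letters, not binding.

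Chek2, which encodes the effector kinase of the branch, lies on chromosome 5 from 110839979 to 110874145 (mm10, plus strand). It had 48.2, 42.4 and 45.3 CPM in 24 h libraries 2, 3 and 4, against 28.5, 22.5 and 24.4 CPM in untreated libraries 1, 2 and 3. The groups did not overlap, and the lowest library at 24 h stood well above the highest untreated one. The same libraries held 279, 243 and 260 counts of the gene at 24 h and 163, 129 and 140 counts in untreated tumours. Means were 45.3 ± 2.86 CPM at 24 h and 25.2 ± 3.08 CPM untreated (SD, n = 3 each), a log2 fold change of 0.85 ± 0.18 (SE). Its unadjusted p in edgeR's quasi-likelihood test, 0.000955, ranked 1 of 14956 tested genes, and the Benjamini-Hochberg adjusted p was 1. No gene was called in that fit (0%), and DESeq2 called 0 genes as well. At an unadjusted p under 0.05 in edgeR's quasi-likelihood test, 171 genes (1.14%) were higher and 92 (0.615%) lower. Together these are fewer than the share of 0.05 that such a threshold gives by chance alone. By unadjusted p in the same test, Chek2 ranked 9 of 14283 genes when only the compared groups were fitted. It ranked 89 of 14956 with the replicate number as a block. A separation of all libraries, as seen for Chek2, was shared by 7.11% of the tested genes in the same direction.

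The adjusted p of Chek2 differed both with the test and with the use of 5-day library 1, although that library is in neither group of the 24 h comparison. Without it the log2 fold change was 0.85 ± 0.12, the unadjusted p was 1.59e-05 (rank 3 of 14699) and the adjusted p in edgeR's quasi-likelihood test was 0.077, with 2 genes called (0.0136%). With limma voom and a quality weight per library, which gave 5-day library 1 a weight of 0.0641, the adjusted p was 0.0454. That fit called 3 of 14956 genes. DESeq2 gave an adjusted p of 0.0529 with 10 libraries and of 0.000104 without 5-day library 1. It called 0 genes in the former fit and 105 in the latter. Over 15 alternatives, the log2 fold change lay between 0.77 and 0.95 and the adjusted p between 0.000104 and 1.

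After 5 days Chek2 had 26.2, 39.1, 36.6 and 38.6 CPM in libraries 1 to 4, against the same 3 untreated libraries with 22.5 to 28.5 CPM. Only library 1 fell within the untreated range; libraries 2, 3 and 4 lay above it and below every 24 h library. The log2 fold change against untreated was 0.48 ± 0.17 (SE), with an adjusted p of 0.538 in edgeR's quasi-likelihood test. Without 5-day library 1 the 5-day mean was 38.1 ± 1.3 CPM (SD, n = 3), the log2 fold change was 0.60 ± 0.12 and the adjusted p was 0.243 in the same test. In this comparison 0% of genes were called with 10 or with 9 libraries by edgeR, and DESeq2 called 21 with 10. At an unadjusted p under 0.05 in edgeR with 10 libraries, 954 genes (6.38%) were higher and 303 (2.03%) lower. With 9 libraries, in which Chek2 at 5 days lay above every untreated library, 6.61% of genes were separated upwards. DESeq2 without 5-day library 1 gave an adjusted p of 0.0267, in a fit that called 77 genes. In edgeR without 5-day libraries 1 and 2 the log2 fold change was 0.57 ± 0.14.

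Set against 24 h directly, Chek2 at 5 days was lower by a log2 fold change of -0.37 ± 0.16 (edgeR quasi-likelihood, adjusted p = 0.581), with 4 libraries below all 3 of the 24 h group. A separation downwards was shared by 4.35% of genes. By edgeR 0% of genes were called, and by DESeq2 3 genes. At an unadjusted p under 0.05 in edgeR, 592 genes (3.96%) were higher and 350 (2.34%) lower. Without 5-day library 1 the difference was -0.25 ± 0.12, with an adjusted p of 0.643 in the same test, and 6.68% of genes were separated downwards. Both comparisons against untreated tumours share the same 3 untreated libraries, of which library 2 had the lowest and library 1 the highest Chek2 level.

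**Figure D1:**
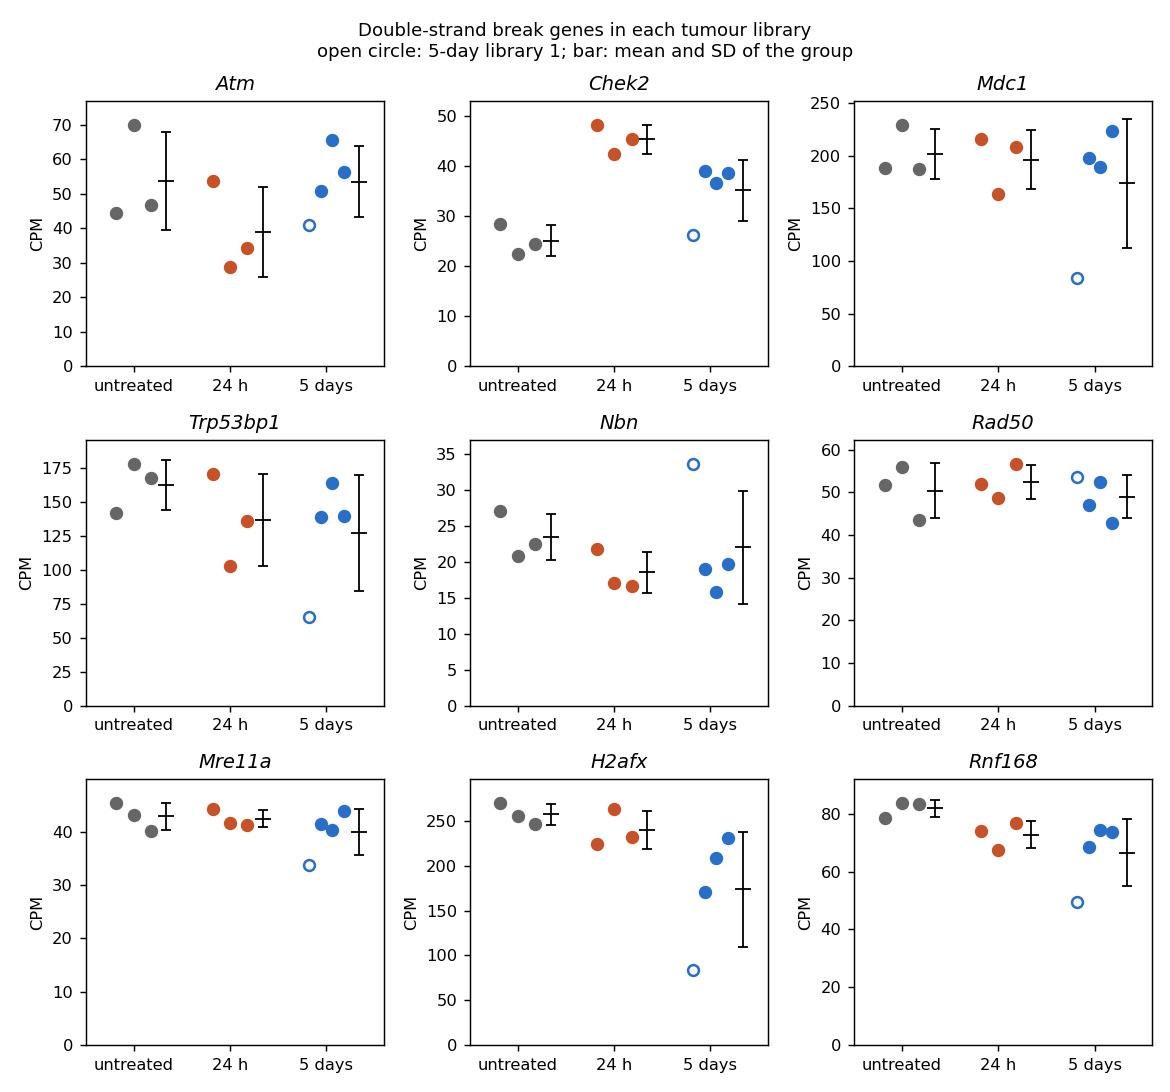
Normalised read count (CPM, linear axes from 0) of the 9 genes with counts in each of the 10 libraries, by group in the order untreated, 24 h and 5 days. Points are libraries, the open circle is 5-day library 1, and the bar is the mean with the SD; Chek2 is the panel in which all 24 h libraries (42.4 to 48.2 CPM) lie above all untreated ones (22.5 to 28.5 CPM).

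Atm encodes the kinase at the head of the branch (chromosome 9, 53439149 to 53536740, minus strand). It had 53.7, 28.8 and 34.3 CPM in 24 h libraries 2, 3 and 4, against 44.5, 70 and 46.7 CPM in untreated libraries 1, 2 and 3. The groups overlapped, since the highest 24 h library lay above 2 of the untreated ones. The log2 fold change was -0.46 ± 0.28 (SE), with an interval from -1.01 to 0.08 and an adjusted p of 1 in edgeR's quasi-likelihood test. It was -0.77 without 24 h library 2, -0.28 without 24 h library 3 and -0.22 without untreated library 2. After 5 days Atm had 41, 51, 65.6 and 56.5 CPM in libraries 1 to 4, within or just below the untreated range, and the log2 fold change against untreated was 0.00 ± 0.26. Against 24 h the 5-day level was higher by 0.46 ± 0.26, or by 0.56 ± 0.24 without 5-day library 1 (edgeR quasi-likelihood, adjusted p = 0.581 and 0.639), and by 0.76 without 24 h library 2 and 0.28 without 24 h library 3. Atm varied more between untreated libraries than any other gene of the set, with an SD of 26.3% of the mean.

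Chek2 and Atm thus stood in different proportion at 24 h. The ratio of Chek2 to Atm CPM, a ratio within a library that does not allow for gene length, was 0.897, 1.47 and 1.32 in 24 h libraries 2, 3 and 4, against 0.642, 0.322 and 0.522 in untreated libraries 1, 2 and 3. The ranges did not overlap. The log2 ratio differed by 1.32 between the groups, with a two-sided exact permutation p of 0.1, which is the smallest that 3 against 3 libraries allow. After Benjamini-Hochberg adjustment over the 3 comparisons it was 0.143. At 5 days the ratio was 0.638, 0.767, 0.559 and 0.682, lower than in every 24 h library. That difference was -0.86 on the log2 scale (exact permutation p = 0.0286, the smallest possible with 4 against 3, and 0.0858 after Benjamini-Hochberg adjustment over the 3 comparisons). Without 5-day library 1 it was -0.85, with an exact permutation p of 0.1. Against untreated the 5-day ratio differed by 0.46 (exact permutation p = 0.143), and by 0.18 when untreated library 2, which has the highest Atm level, was left out.

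Against the mean log2 level of the other 9 genes, Chek2 was higher at 24 h than in untreated tumours by 0.99 on the log2 scale, and higher at 5 days than in untreated tumours by 0.68. Leaving Rnf8 out of that mean gave 1.01 and 0.71. As a share of the summed CPM of the 10 genes, Chek2 made up 5.32%, 5.46% and 5.35% in the 24 h libraries and 5.55%, 5.05%, 4.32% and 4.43% in the 5-day libraries, against 3.26%, 2.35% and 2.83% in the untreated ones. Here 5-day library 1 lay with the treated libraries, although its Chek2 CPM did not. The summed CPM of the other 9 genes was 445 in that library, against 735 to 936 in the rest.

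**Figure D2:**
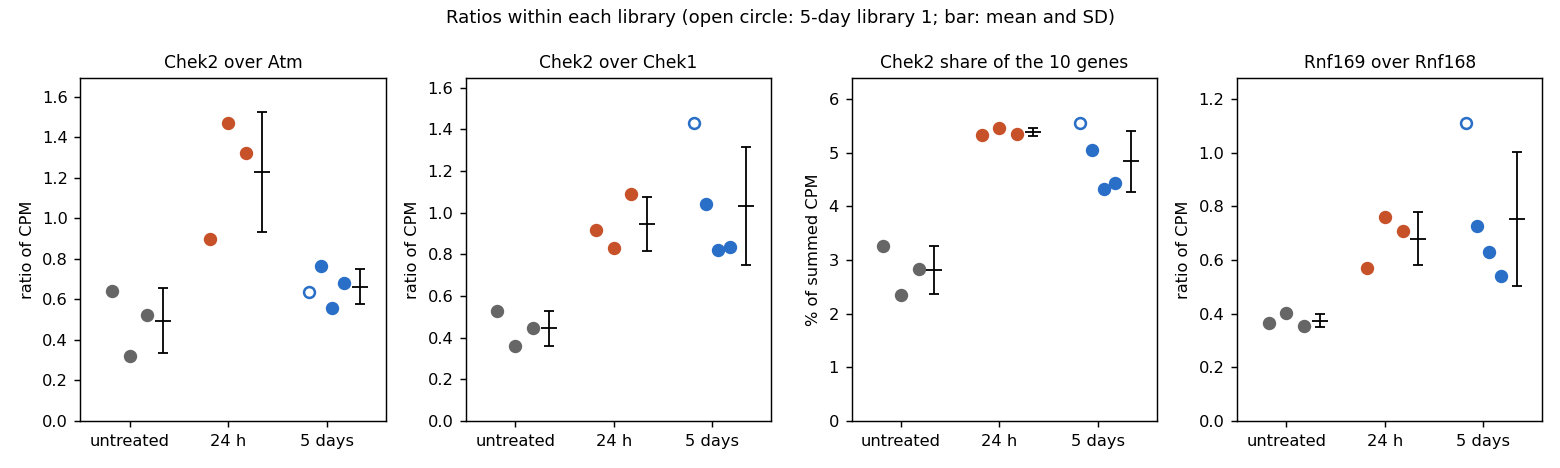
Ratios within each library by group: Chek2 over Atm, Chek2 over Chek1, Chek2 as a percentage of the summed CPM of the 10 genes, and Rnf169 over Rnf168. Points are libraries, the open circle is 5-day library 1, and bars are mean and SD; each 24 h library lies above each untreated library in all 4 panels.

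Of the sensor complex, Mre11a and Rad50 differed little between groups, and Nbn is described after them. Mre11a, the nuclease of the complex (chromosome 9, 14784654 to 14837123, plus strand), had 44.2, 41.7 and 41.3 CPM at 24 h and 33.8, 41.5, 40.3 and 43.9 CPM at 5 days, against 45.3, 43.1 and 40.2 CPM untreated. Its log2 fold change was -0.02 ± 0.13 at 24 h and -0.11 ± 0.12 at 5 days, both against untreated, so that the interval at 24 h ran from -0.27 to 0.24. Without 5-day library 1 the 5-day value was -0.03 ± 0.1. Rad50, which encodes the ATPase that tethers the ends (chromosome 11, 53649519 to 53707319, minus strand), averaged 52.4 ± 3.97 CPM at 24 h and 49 ± 5.1 CPM at 5 days (SD, n = 3 and n = 4), against 50.4 ± 6.45 CPM untreated (n = 3). Its libraries overlapped in every comparison, and both fold changes against untreated lay within 1 SE of 0. Part of the exons of Mre11a (154 bp) overlaps Ankrd49 on the opposite strand and, with no strand setting known for the counts, reads there cannot be told apart. Ankrd49 itself differed by -0.15 ± 0.13 at 24 h.

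Nbn, which encodes the subunit that recruits ATM (chromosome 4, 15957925 to 15992589, plus strand), had 21.8, 17.1 and 16.7 CPM at 24 h and 33.6, 19, 15.8 and 19.7 CPM at 5 days, against 27.1, 20.8 and 22.5 CPM untreated. The highest value of all was that of 5-day library 1, where the adrenergic markers were lowest and the macrophage and fibroblast markers highest; their part in this value was not tested. At 24 h the log2 fold change was -0.34 ± 0.28 with overlapping groups. At 5 days it was -0.09 ± 0.26 against untreated with all libraries and -0.37 ± 0.17 without 5-day library 1, when every 5-day library lay below every untreated one. Neither passed the threshold (edgeR quasi-likelihood, adjusted p = 0.883 and 0.585), and a separation downwards was seen for 7.6% of genes in these 9 libraries.

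H2afx, which encodes the histone variant that ATM phosphorylates, is a gene of 1 exon (chromosome 9, 44334694 to 44336077, plus strand). Unlike most replication-dependent histone genes it also gives a polyadenylated transcript, the form such libraries capture. It had 84.2, 171, 209 and 231 CPM in 5-day libraries 1 to 4, against 270, 256 and 247 CPM in the untreated ones. All 4 libraries lay below the untreated range, as was the case for 4.89% of genes in this comparison. The log2 fold change was -0.57 ± 0.28 (adjusted p = 0.538 in edgeR's quasi-likelihood test), and -0.34 ± 0.11 without 5-day library 1 (adjusted p = 0.443). The 5-day libraries 2, 3 and 4 were spread over a wider range than the 3 untreated libraries, with an SD of 30.5 CPM at 5 days and of 11.6 CPM untreated. At 24 h H2afx had 225, 264 and 232 CPM, overlapping the untreated values, and a log2 fold change of -0.10 ± 0.30. The 5-day level set against 24 h differed by -0.47 ± 0.28, or by -0.24 ± 0.11 without 5-day library 1, with overlapping groups.

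Mdc1, which encodes the reader of phosphorylated H2AX (chromosome 17, 35841515 to 35859670, plus strand), had 216, 164 and 208 CPM at 24 h and 84.2, 198, 189 and 223 CPM at 5 days, against 188, 229 and 187 CPM untreated. Apart from 5-day library 1 the groups overlapped, and the log2 fold changes against untreated were -0.04 ± 0.31 at 24 h and -0.21 ± 0.29 at 5 days. Without 5-day library 1 the 5-day value was 0.02 ± 0.12, so the sign of the 5-day difference rested on that library. Trp53bp1, which encodes 53BP1, the protein that favours end joining over resection (chromosome 2, 121193281 to 121271407, minus strand), had 171, 103 and 136 CPM at 24 h and 65.2, 139, 164 and 140 CPM at 5 days, against 142, 178 and 168 CPM untreated. Its log2 fold changes against untreated were -0.25 ± 0.31 at 24 h and -0.35 ± 0.29 at 5 days, and -0.13 ± 0.16 at 5 days without library 1. The 3' end of Trp53bp1 overlaps Tubgcp4 on the opposite strand over 5490 bp, of which 2130 are exonic in both.

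Rnf168 encodes the ligase that ubiquitinates H2A around the break (chromosome 16, 32277459 to 32301434, plus strand). It had 74.1, 67.6 and 76.7 CPM at 24 h and 49.5, 68.4, 74.3 and 73.6 CPM at 5 days, against 78.4, 83.6 and 83.5 CPM untreated. Both treated groups lay wholly below the untreated one, by a small margin: 6.69% of genes did so at 24 h and 4.89% at 5 days. The log2 fold changes were -0.17 ± 0.16 at 24 h and -0.30 ± 0.15 at 5 days, or -0.16 ± 0.09 and -0.18 ± 0.09 without 5-day library 1. The adjusted p in edgeR's quasi-likelihood test was 1 at 24 h and 0.538 at 5 days with 10 libraries, and 0.659 and 0.608 with 9.

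Rnf8, the ligase gene upstream of Rnf168 (chromosome 17, 29614790 to 29644991, plus strand), had a count of 0 in each of the 10 libraries and was not tested. By counting error alone, a count of 0 allows up to 3 counts, or 0.516 to 0.655 CPM, depending on the library. The annotation places Gm28043 on the same strand, with a start 86 bp away and 1542 bp of exon shared with Rnf8, and Gm28043 was also at 0 in all 10 libraries. The handling of reads that match both genes is not known from the sources, so no level of Rnf8 can be drawn from these counts.

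**Figure D3:**
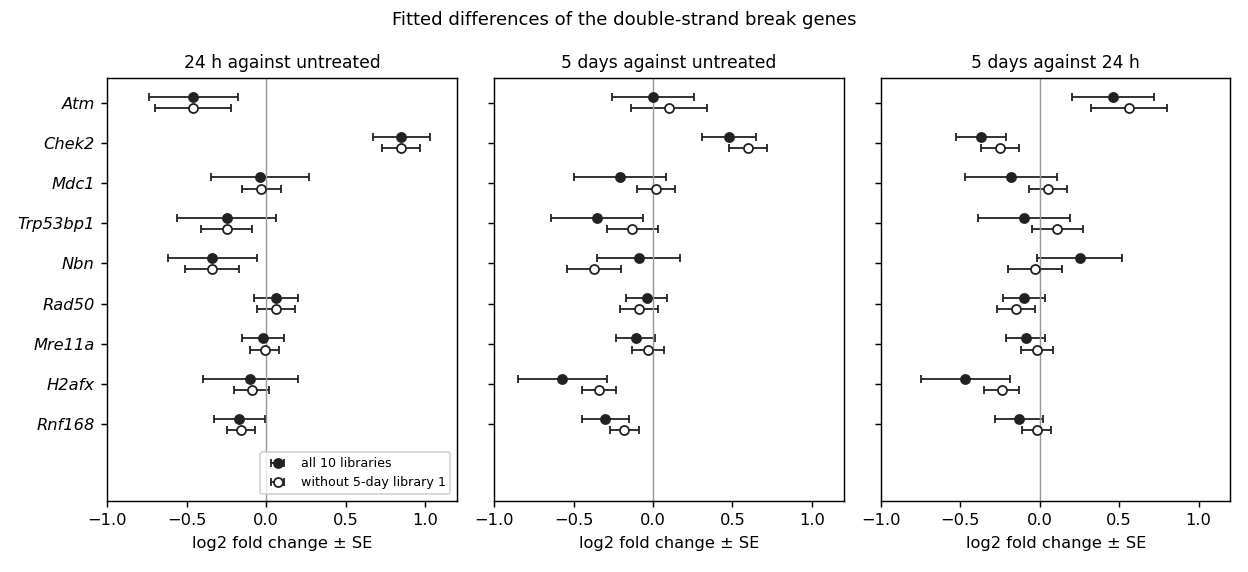
Log2 fold changes (x axis, edgeR, bars are 1 SE) of the 9 tested genes in the 3 comparisons, with all 10 libraries (filled) and without 5-day library 1 (open). Chek2 lies at 0.85 in both fits at 24 h, while the other 8 genes lie between -0.46 and 0.06 there.

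Per kilobase of exon, the order of the levels in untreated tumours was H2afx (186 CPM per kb), Mdc1 (27.1), Rnf168 (18.3), Trp53bp1 (11.5), Rad50 (9.38), Nbn (9.26), Chek2 (8.38), Mre11a (7.24) and Atm (5.2 CPM per kb). From Trp53bp1 to Mre11a the neighbours in this order differed by less than the sum of their SDs. At 24 h Chek2 reached 15.1 ± 0.954 CPM per kb (SD, n = 3) and stood between Rnf168 with 16.3 ± 1.05 and Rad50 with 9.76 ± 0.739. At 5 days without library 1 it held the same rank with 12.7 ± 0.432 CPM per kb, and Atm was lowest in every group. These lengths join the exons of all annotated transcripts, so a gene with long rarely used exons appears lower than it is.

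Across the 9 tested genes the median log2 fold change was -0.10 at 24 h against untreated and -0.11 at 5 days against untreated, beside -0.01 and 0.01 for all 14956 tested genes. Without 5-day library 1 both medians were -0.09, beside 0.00 for all 14699 genes. At 24 h, 2 of the 9 had values above 0 (Chek2 and Rad50) and 7 below. At 5 days against 24 h the median was -0.10 with 10 libraries and -0.02 with 9, and only Atm and Nbn had values above 0 with 10.

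Genes that surround the set were read from lists of the same pathway and of the cell cycle. Of 13 tested genes that act on ATM activation or on its reversal, 0 passed the threshold in any comparison, and their median log2 fold change at 24 h was 0.04. Tti1, which encodes a subunit of the TTT complex that stabilises ATM and related kinases, had 29.3, 24.5 and 29.8 CPM at 24 h, against 35.4, 34.4 and 36.9 CPM untreated (log2 fold change -0.35 ± 0.17). Usp28, which encodes a deubiquitinase that binds 53BP1, differed by -0.28 ± 0.18. Of 10 end joining genes, 0 passed either, and the kinase gene Prkdc averaged 34.7 ± 3.13 CPM at 24 h and 26.4 ± 3.58 CPM untreated (SD, n = 3 each; log2 fold change 0.39 ± 0.19), with no overlap between these groups, as for 7.11% of genes in this direction.

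In the ubiquitin branch and among the effectors of 53BP1, 0 of 19 tested genes passed, but Rnf169 stood out from Rnf168. RNF169 binds the chromatin mark that RNF168 makes and limits the binding of 53BP1 to it. Rnf169 had 42.1, 51.3 and 54.2 CPM at 24 h and 55.2, 49.8, 46.8 and 39.8 CPM at 5 days, against 28.7, 33.5 and 29.4 CPM untreated. Every treated library, 5-day library 1 included, lay above every untreated one, as 7.11% of genes did at 24 h and 4.01% at 5 days. The log2 fold changes were 0.69 ± 0.16 and 0.65 ± 0.15, with adjusted p of 1 and 0.538 in edgeR's quasi-likelihood test, and 0.69 ± 0.13 and 0.57 ± 0.13 without 5-day library 1 (adjusted p = 0.178 and 0.282). The ratio of Rnf169 to Rnf168 CPM was 0.569 to 0.76 at 24 h and 0.541 to 1.11 at 5 days, against 0.353 to 0.401 in untreated tumours. Rif1, an effector of 53BP1, had a log2 fold change of -0.31 ± 0.23 at 24 h, and Ube2n, the conjugating enzyme that works with RNF8, of -0.15 ± 0.15.

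In the ATR-CHK1 branch, of which ATR is the target of AZD6738, 0 of 12 tested genes passed in any comparison. Their median log2 fold change at 24 h was -0.15, and 8 of 12 were below 0. Chek1, the counterpart of Chek2 below ATR, had 52.7, 51 and 41.6 CPM at 24 h and 18.3, 37.7, 44.7 and 46.2 CPM at 5 days, against 53.9, 62.2 and 54.9 CPM untreated. Both treated groups lay below the untreated one, as did those of 6.69% of genes at 24 h and 4.89% at 5 days, with log2 fold changes of -0.23 ± 0.29 and -0.63 ± 0.27, or -0.23 ± 0.12 and -0.41 ± 0.12 without 5-day library 1. The ratio of Chek2 to Chek1 CPM was 0.915, 0.832 and 1.09 at 24 h and 1.43, 1.04, 0.819 and 0.835 at 5 days, against 0.529, 0.362 and 0.444 untreated. Atr averaged 45.9 ± 8.07 CPM at 24 h and 50.2 ± 8.38 CPM untreated (SD, n = 3 each). Rad9a, a subunit of the clamp that helps to activate ATR, was the gene of this list with the smallest unadjusted p at 24 h (0.0243), with 32.5 ± 4.54 CPM at 24 h and 24.7 ± 1.46 CPM untreated.

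Among 13 substrates of ATM or CHK2, 0 passed, and the median log2 fold change at 24 h was 0.01. Cdc25c, a phosphatase gene whose product CHK2 phosphorylates, averaged 76.2 ± 9.93 CPM at 24 h and 55.4 ± 8.53 CPM untreated, and Bid, a pro-apoptotic substrate of ATM, 40 ± 4.66 CPM at 24 h and 50.2 ± 2.03 CPM untreated (SD, n = 3 each). Of 22 tested p53-induced genes 19 had values above 0 at 24 h and 0 passed, with a median log2 fold change of 0.44, beside -0.01 for all genes. Sesn2, a stress-induced inhibitor of mTORC1 signalling, had 26.9, 19.2 and 28.4 CPM at 24 h, against 7, 6.29 and 6.1 CPM untreated, and Bbc3, which encodes the pro-apoptotic protein PUMA, had 55.2, 49.3 and 64.1 CPM, against 35.5, 26.9 and 33.5 CPM. Neither gene's groups overlapped, as was so upwards for 7.11% of genes at 24 h. Their log2 fold changes were 1.94 ± 0.51 and 0.81 ± 0.25, with an adjusted p of 1 each in edgeR's quasi-likelihood test. Without 5-day library 1 they were 1.94 ± 0.32 and 0.82 ± 0.14 (adjusted p = 0.136 and 0.13 in the same test). Mdm2, the p53 ligase gene, averaged 114 ± 1.84 CPM at 24 h and 99.6 ± 5.37 CPM untreated.

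Of 29 tested G2/M genes 27 had values above 0 at 24 h, with a median log2 fold change of 0.26, and all 22 tested S phase genes had values below 0, with a median of -0.11. No gene of either list passed the threshold. Summed over the G2/M list the 24 h libraries held 6500 to 7600 CPM and the untreated ones 5590 to 6460 CPM; the part of this shift in the Chek2 difference was not tested. Aurka, which encodes the target of MLN8237, had 196, 173 and 225 CPM at 24 h, against 125, 140 and 123 CPM untreated, and Cdc6, which encodes a replication licensing factor, had 34.2, 28.8 and 30.8 CPM, against 45.3, 56.7 and 42.7 CPM. At 5 days the G2/M median was -0.01 with all libraries and 0.22 without 5-day library 1, where that list summed to 2430 CPM, against 5590 to 7600 CPM in the other 9. The summed markers of macrophages, Schwann cells and T cells were also higher in each 24 h library than in each untreated one. Of 15 macrophage markers 13 were higher at 24 h, and they summed to 1340 to 1680 CPM, against 636 to 1090 CPM untreated. The log2 fold changes of the 15 ran from -2.05 to 1.46, and none was at 0 in all libraries. All 7 Schwann cell markers were higher, and they summed to 34.7 to 69.5 CPM, against 15.4 to 25.3 CPM untreated. Of the 7, 5 passed the count filter, and none was at 0 in all libraries. Of 8 T cell markers 5 were higher, and they summed to 12.1 to 16.7 CPM at 24 h, against 7.68 to 10.9 CPM untreated. These are low levels: only 2 of the 8 passed the count filter, although none was at 0 in all libraries. Their part in the values of the set was not tested.

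**Figure D4:**
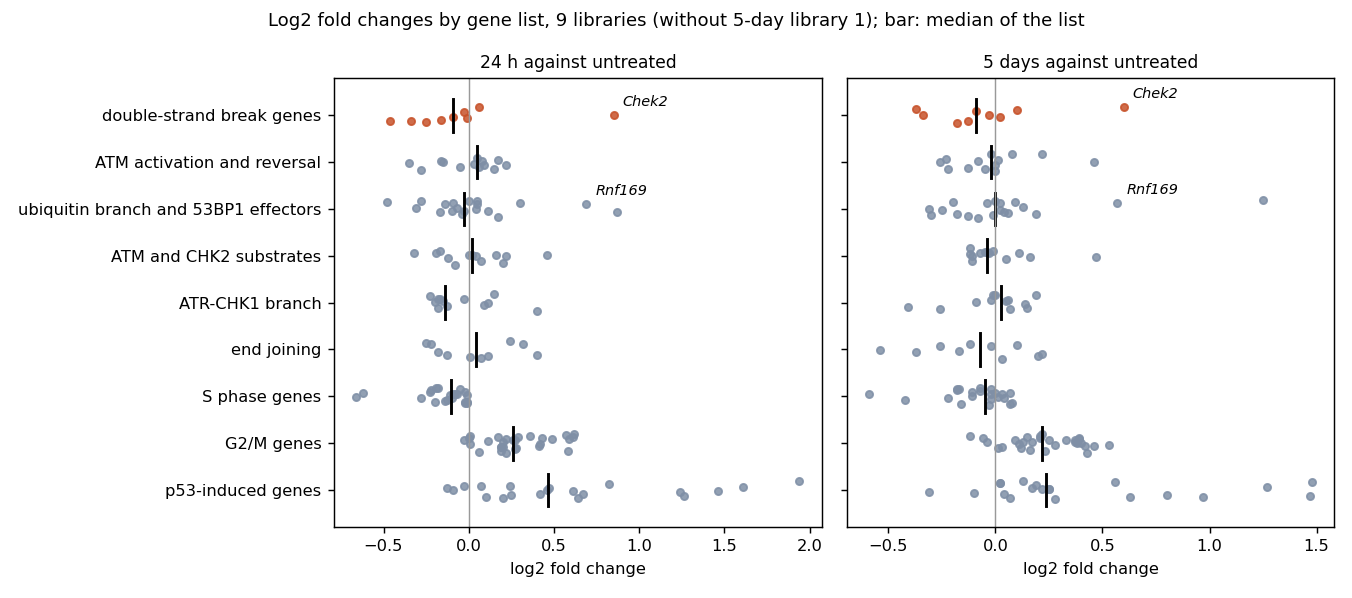
Log2 fold changes (x axis) at 24 h and at 5 days against untreated, without 5-day library 1, for the 10-gene set (top row, 9 tested genes) and the 8 lists around it; points are genes and bars are list medians. Chek2 (0.85 and 0.60) stands apart from the other genes of its row, Rnf169 (0.69 and 0.57) is marked in the ubiquitin row, and the G2/M medians are 0.26 and 0.22.

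The genes that share an upstream stretch with Chek2 and Atm showed smaller differences. Hscb, which starts 202 bp from Chek2 on the opposite strand, had 12.6, 17.6 and 15.2 CPM at 24 h, against 14.9, 10.7 and 12.5 CPM untreated. Its groups overlapped, with a log2 fold change of 0.25 ± 0.30, or 0.26 ± 0.20 without 5-day library 1. Npat, which encodes an activator of histone genes and starts 307 bp from Atm on the opposite strand, averaged 46.8 ± 11.5 CPM at 24 h and 49.9 ± 6.07 CPM untreated (SD, n = 3 each), a log2 fold change of -0.09 ± 0.23. The same 24 h library was highest for both Atm and Npat, with 53.7 and 59.9 CPM.

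Of 12508 genes with a mean of at least 5 CPM, those whose log2 level followed Chek2 most closely over the 9 libraries without 5-day library 1 were Cdca2 (Pearson r = 0.962), Kifc5b (0.956), Naaladl1 (0.952), Gm4961 (0.944) and Depdc1a (0.943). CDCA2 is a mitotic regulator of a protein phosphatase, and Kifc5b belongs to the kinesin genes. These values describe 9 points in 3 groups and largely follow the difference between the groups. Cdca2 had 129, 107 and 127 CPM at 24 h and 112, 109 and 115 CPM in 5-day libraries 2, 3 and 4, against 83.2, 80.3 and 80.8 CPM untreated, the same order of groups as Chek2. In 5-day library 1 Cdca2 had 36.2 CPM, below every untreated library, whereas Chek2 stayed within the untreated range. Over all 10 libraries the list was different, with Pnrc2 (0.944), Bbc3 (0.931), Cdc25b (0.931), Nde1 (0.916) and Cenpl (0.914). Within the set the r with Chek2 over 9 libraries was 0.0592 for Rad50, -0.00342 for Mre11a, -0.0811 for Mdc1, -0.392 for H2afx, -0.403 for Atm, -0.468 for Trp53bp1, -0.511 for Nbn and -0.77 for Rnf168.

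**Figure D5:**
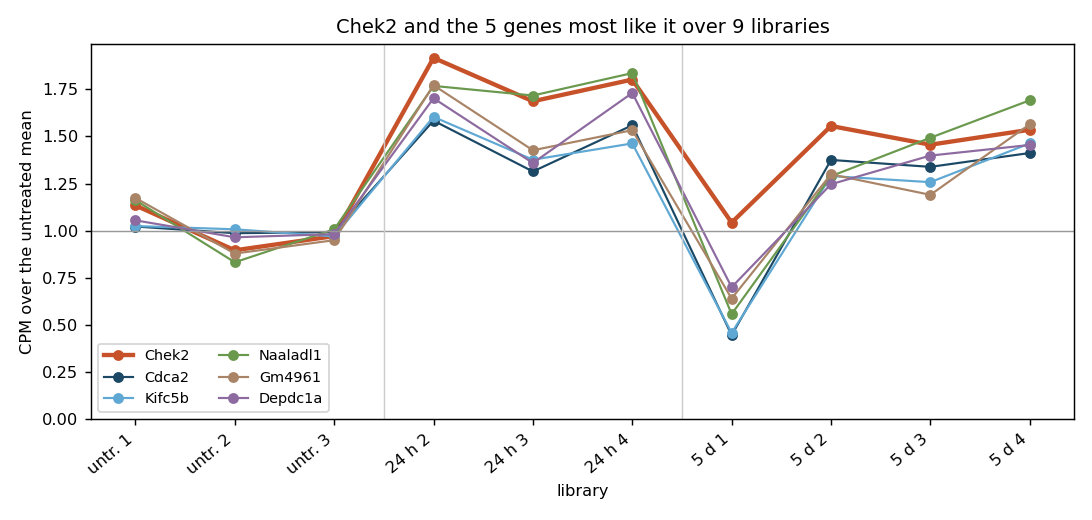
Normalised read count in each library divided by the mean of the 3 untreated libraries (y axis, linear from 0), for Chek2 and the 5 genes most like it over 9 libraries; lines join the libraries of the x axis only to guide the eye. For all 6 genes each 24 h library lies above each untreated library, and 5-day library 1, which was not used to choose them, lies below 1 for the other 5 genes and near 1 for Chek2.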

How the data were processed

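RNA was taken from flash-frozen tumours with Trizol and made into polyadenylated RNA libraries with NEB protocols, per the labels' protocols. The values the authors deposited are raw read counts for each Ensembl gene in each library, and 0 columns were left unmatched. Per the submitters' processing notes, build mm10 was used with TopHat2 2.1.1, HISAT2 and edgeR, in roles that are not named. The sources used here do not name the read counter, the annotation or the strand setting. Reads of overlapping genes may therefore have been counted differently from those of other genes.

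Of 54446 identifiers, 54409 were given a symbol and coordinates from GENCODE release M21 (mm10). The analysis used edgeR 4.0.16 under R 4.3.3: filterByExpr (minimum count 10, minimum total 15; 14956 genes), TMM scaling, 1 mean per group over all 10 libraries, robust quasi-likelihood F tests, and Benjamini-Hochberg adjustment over all tested genes with a threshold of 0.05. The same fit was made without 5-day library 1 (14699 genes). The biological coefficient of variation was 40.8% with 10 libraries and 18.9% with 9. Levels are CPM on TMM-scaled library sizes with the SD over libraries, SEs come from the F statistic, and intervals of fold changes are 1.96 SE. Ratios on a log scale add 0.5 CPM; those of Chek2 to Atm were compared by exact permutation.

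The 10 genes, the lists around them and the tests were chosen with earlier results of these data known. Besides the 10 genes, those named were up to 3 per list with the smallest unadjusted p in each comparison with untreated tumours, genes that overlap a member or start within 1000 bases of its start, the 5 genes most correlated with Chek2, and Mycn, Aurka, Atr and Chek1. Of the genes this rule gives, those with the clearest known role in the pathway are printed. Rnf169 and Rnf168 are compared with each other as a choice made after their values were seen.

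Alternatives were DESeq2 1.42.0, edgeR with the size factors of DESeq2, a filter of 5 CPM on the mean or none, only the compared groups, limma 3.58.1 voom with a quality weight per library, replicate number as a block, other pseudocounts for the ratios, and each library left out in turn, as well as 5-day libraries 1 and 2 together. Chosen after seeing the data were the fit of only the compared groups and DESeq2, each without 5-day library 1, and the mean of the set without Rnf8. The steps were also run on simulated counts with known changes. No simulated library was made to stand apart, so that run does not test the effect of 5-day library 1. The labels give only a replicate number, and correlations between libraries could not decide whether same-numbered libraries share an origin. The main fit therefore left the numbers out, and the fit with them as a block is given as an alternative. Python 3.11.15 with matplotlib 3.10.9 drew the plots.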

Additional observations from a re-analysis of the deposited data

Results flagged for a closer look

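In the 5-day group, 5 of 45 values examined had 1 library far from the other 3 by Dixon's criterion, which sets the gap to the nearest library against the group's range; chance flags about 1 group in 20. In each case the library was 5-day library 1, and none of the 5 is a gene of the set. Mdm2 had 144 CPM there, against 103 to 109 CPM in 5-day libraries 2 to 4. The other genes were low there. Baz1b had 257 CPM, where the other 3 held 373 to 390 CPM. Rif1 had 61.5 CPM, where the others held 101 to 108 CPM. Mycn, the mouse gene, had 21.6 CPM, where the others held 94.3 to 105 CPM, and Cdca2 had 36.2 CPM, where they held 109 to 115 CPM.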

How the results depend on the processing

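Chek2 kept its direction in every alternative of each comparison, as did H2afx. Rnf168 and Trp53bp1 kept theirs in both comparisons against untreated. Atm did so in both comparisons with 24 h and Mre11a in both with 5 days. Nbn did so at 24 h against untreated and Rad50 at 5 days against 24 h. Chek2 was past the threshold in 2 of 15 alternatives at 24 h (voom with weights, and DESeq2 without 5-day library 1) and in 1 of 17 at 5 days. Leaving out single libraries gave Chek2 log2 fold changes of 0.78 to 0.95 at 24 h, 0.41 to 0.60 at 5 days and -0.42 to -0.25 at 5 days against 24 h. At 24 h it gave 0 to 2 called genes and medians of the set of -0.13 to -0.08. The medians were -0.16 to -0.09 at 5 days and -0.19 to -0.02 at 5 days against 24 h. The count of calls over all genes, 0 in each comparison, moved to 21 at 5 days against untreated and 3 at 5 days against 24 h with DESeq2. At 24 h it moved to 7 with only the compared groups and 3 with voom weights, and at 5 days against 24 h to 2 without 5-day libraries 1 and 2. DESeq2 without 5-day library 1 called 105 genes at 24 h, 77 at 5 days and 20 at 5 days against 24 h. The causes were not tested.

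With the replicate block, Chek2 differed by 0.77 ± 0.23 at 24 h (edgeR quasi-likelihood, adjusted p = 0.9) and the median of the set at 24 h was -0.31, against -0.10 without it. Correlations of same-numbered libraries ran from -0.395 to 0.247. For numbers 2 and 3 they were 0.211 and 0.247 between untreated and 24 h libraries. Both lay above every differently numbered pair of these groups (-0.291 to 0.0493). Between untreated and 5-day libraries of these numbers they were 0.0262 and -0.395, within the range of differently numbered pairs (-0.549 to 0.487). With so few libraries per group, these values cannot decide whether same-numbered libraries share an origin, and the labels give only the number.

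The sign changed for differences near 0. Atm at 5 days against untreated was 0.01 with DESeq2, with its size factors, with the filter at 5 CPM and with only the compared groups, 0.02 with the replicate block, and 0.22 with voom weights. It was 0.18 without 5-day libraries 1 and 2, and 0.11 in both fits added without 5-day library 1, while single libraries left out gave -0.13 to 0.24. Mdc1 at 5 days against untreated was 0.03 without 5-day libraries 1 and 2 and 0.02 in both added fits, and -0.35 to 0.02 with single libraries left out. Against 24 h it was 0.01 with voom weights, 0.07 without both libraries, and 0.05 and 0.06 in the added fits. Trp53bp1 at 5 days against 24 h was 0.04 with the replicate block, 0.22 with voom weights, 0.16 without both libraries and 0.12 in the added fits. Nbn at 5 days against 24 h was -0.02 with voom weights, -0.06 without both libraries, and -0.03 and -0.02 in the added fits. Rad50 at 5 days against untreated was 0.01 with voom weights, and Rnf168 at 5 days against 24 h was 0.02 without both libraries. Leaving out single libraries gave Atm, with no change of sign, values of -0.77 to -0.22 at 24 h against untreated and of 0.28 to 0.76 at 5 days against 24 h. It also gave, at 24 h against untreated, -0.12 to 0.08 for Mdc1, -0.06 to 0.02 for Mre11a and -0.04 to 0.15 for Rad50. At 5 days against untreated it gave -0.37 to 0.04 for Nbn and -0.15 to 0.04 for Rad50. At 5 days against 24 h it gave -0.32 to 0.05 for Mdc1, -0.27 to 0.11 for Trp53bp1 and -0.03 to 0.38 for Nbn.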
